A study of Mus musculus with 81 samples.

Results

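The Schlafen genes analysed here were the 7 protein-coding mouse genes Slfn1, Slfn2, Slfn3, Slfn4, Slfn5, Slfn8 and Slfn9, chosen by gene symbol from the 55450 genes listed in the time course. The choice was made with measured values in view, because Slfn4 was among the strongest rises in cells that lack histone H3.3. Those values, the differences between H3.3-deficient and control cells in the time course and every such difference of Slfn4, are therefore given as a description with no test. Counts of members whose groups did not overlap between these cells, and medians over the 7 members, include Slfn4 and are descriptions too. All 7 genes passed the filter on low counts in each of the 5 experiments, although Slfn1 and Slfn4 reached it in part through the groups where they are high.

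The study asked what happens to mouse macrophages when both genes for the replacement histone H3.3, H3f3a and H3f3b, are deleted in myeloid cells, and total RNA was sequenced from 81 libraries, of which 79 could be placed in a group. Mice were C57BL/6 and aged 8 to 10 weeks, and their bone marrow was cultured in medium conditioned by L929 cells to give bone marrow-derived macrophages (BMDMs). WT cells came from H3f3a fl/fl H3f3b fl/fl mice without a Cre transgene, and H3.3cKO cells (cKO) from mice with the same floxed alleles and, in addition, LysM cre/cre. Cre was expressed from both copies of the lysozyme gene Lyz2, so that loss of H3.3 came with loss of Lyz2 transcript and the 2 cannot be told apart, and the study describes deletion of H3f3b as variable.

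The groups, with 3 libraries each unless stated, were as follows. WT and cKO BMDM progenitors or BMDMs were lysed on days 3, 5 and 7 of culture. On day 8, WT and cKO BMDMs were left untreated or given interferon gamma (IFNγ) for 12 h, and 2 cKO libraries were placed in each arm. Resident peritoneal macrophages were isolated from WT and cKO mice. In the antibody experiment WT and cKO cells received no antibody, an IgG1 isotype control antibody or an antibody that blocks the type I interferon receptor chain IFNAR1 from day 0, and were lysed on day 6. A further 3 sets of WT and cKO BMDMs were sequenced together with BMDMs of the double knockouts H3.3cKO:StingKO, H3.3cKO:MavsKO and H3.3cKO:Irf7KO, all of which carry the H3.3cKO alleles too. The labels do not tie a set to a double knockout. The titles call the libraries of a group biological replicates and do not tie them to animals, so p-values here measure the spread between these samples.

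Schlafen proteins are found in vertebrates and take their name from the German verb for sleeping, because the founding mouse member Slfn1 slowed the growth of T cells. The mouse proteins are sorted by length into a short form (Slfn1 and Slfn2), an intermediate form (Slfn3 and Slfn4) and a long form with a helicase-like C-terminal part (Slfn5, Slfn8 and Slfn9). Many family members are induced by interferons, Slfn2 is known for keeping T cells and monocytes quiescent, and Slfn4 is best known from myeloid cells.

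All 7 genes lie in 1 cluster on chromosome 11 (GRCm38), within 344386 bases between 82942341 and 83286726. Slfn2 (83065112 to 83070678), Slfn1 (83116849 to 83122670), Slfn4 (83175186 to 83190216), Slfn3 (83191330 to 83215154) and Slfn5 (82951349 to 82964840) are on the plus strand. Slfn9 (82978390 to 82991830) and Slfn8 (83002158 to 83020810) are on the minus strand, next to the transcribed pseudogene Slfn10-ps. The genes are similar enough to limit what short reads can tell. Of all 50-base windows of a gene's exons, the share that also occurs in another gene was 0.606% for Slfn1, 4.27% for Slfn2, 11.3% for Slfn4, 15.99% for Slfn3, 14.6% for Slfn8, 11.9% for Slfn9 and 11.1% for Slfn5. Slfn3 and Slfn4 shared most with each other, and Slfn8 and Slfn9 with Slfn10-ps, so their values are uncertain to that extent. Slfn5 shares 559 exon bases with the antisense gene Slfn5os. In counts made without strand, reads there are ambiguous and are left out, which can lower both genes. Slfn5os itself had at most 4 counts in any library.

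The promoter sequences are shown because the members respond to interferon and their promoters fall into 2 groups by the short runs of letters they hold. Each is the 180 bases before the RefSeq transcript start, read 5′ to 3′ on the gene's own strand (GRCm38.p6), and all 7 members had an entry. In the plus-strand genes Slfn1 (chr11:83116640-83116819), Slfn2 (chr11:83064932-83065111), Slfn3 (chr11:83191150-83191329) and Slfn4 (chr11:83175006-83175185), capitals mark the letters ACTTCCTGG.
Slfn1: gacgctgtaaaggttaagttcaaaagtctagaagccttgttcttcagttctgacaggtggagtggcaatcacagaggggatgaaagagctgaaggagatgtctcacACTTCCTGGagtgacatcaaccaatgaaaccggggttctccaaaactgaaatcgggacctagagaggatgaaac
Slfn2: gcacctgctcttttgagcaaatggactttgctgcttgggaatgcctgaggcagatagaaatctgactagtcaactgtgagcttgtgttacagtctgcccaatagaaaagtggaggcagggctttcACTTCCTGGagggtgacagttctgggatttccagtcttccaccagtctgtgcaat
Slfn3: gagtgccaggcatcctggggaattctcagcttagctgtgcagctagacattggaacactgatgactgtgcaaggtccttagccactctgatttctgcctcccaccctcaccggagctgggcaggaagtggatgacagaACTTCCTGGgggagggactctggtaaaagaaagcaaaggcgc
Slfn4: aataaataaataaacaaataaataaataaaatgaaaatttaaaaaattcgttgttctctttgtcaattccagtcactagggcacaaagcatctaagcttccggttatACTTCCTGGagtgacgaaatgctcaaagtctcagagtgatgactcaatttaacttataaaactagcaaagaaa
In Slfn5 (chr11:82951922-82952101, plus strand), Slfn8 (chr11:83020811-83020990, minus strand) and Slfn9 (chr11:82991831-82992010, minus strand), capitals mark a match to GAAANNGAAA, the core letters of the interferon-stimulated response element, which in Slfn8 and Slfn9 reads on the opposite strand.
Slfn5: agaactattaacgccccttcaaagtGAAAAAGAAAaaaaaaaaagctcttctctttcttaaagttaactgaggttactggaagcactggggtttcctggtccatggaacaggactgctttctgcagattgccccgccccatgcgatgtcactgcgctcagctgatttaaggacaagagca
Slfn8: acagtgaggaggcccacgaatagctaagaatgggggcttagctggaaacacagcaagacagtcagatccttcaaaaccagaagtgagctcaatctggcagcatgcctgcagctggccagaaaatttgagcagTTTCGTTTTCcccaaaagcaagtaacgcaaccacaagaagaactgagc
Slfn9: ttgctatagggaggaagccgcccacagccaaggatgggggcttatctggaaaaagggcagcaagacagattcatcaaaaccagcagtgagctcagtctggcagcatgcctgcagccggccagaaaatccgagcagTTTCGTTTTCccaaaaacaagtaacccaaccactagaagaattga

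The ACTTCCTGG run was present in 4 of 7 members, beginning 74 bases before the start in Slfn1, 55 in Slfn2, 42 in Slfn3 and 73 in Slfn4, and in 0.843% of 32851 RefSeq promoters of 300 bases (250 before and 50 after the start). It was picked after these promoters had been read, so its share among the members is a description. GAAANNGAAA was present in 3 of 7 members, 155 bases before the start in Slfn5, 48 in Slfn8 and 45 in Slfn9, and in 3.44% of all promoters, while TTCNNNGAA, the letters of a gamma-activated site, was present in none of the 7 and in 8.3% of all. Both strands were searched, the motifs do not overlap each other, and the Slfn5 match lies in a run of A. The longest stretch shared between 2 windows was 20 bases, in Slfn8 and Slfn9, followed by 15 bases in Slfn1 and Slfn4. The RefSeq start of Slfn5 lay 753 bases from the annotated gene start and that of Slfn1 29 bases, and Slfn8 had 2 listed starts, of which 1 is shown.

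Time course libraries held 14419697 to 20220329 counts on genes, day 8 libraries 3614967 to 9879339, peritoneal libraries 7625225 to 23381318, antibody libraries 5295144 to 34380735 and libraries of the sets 21504555 to 45581528. H3f3a was lower in cKO in every experiment, by 1.87 to 3.47 on the log2 scale. H3f3b fell by 2.92 to 3.12 on the log2 scale in the antibody experiment, and in the other experiments its cKO-to-WT log2 fold changes were between -0.41 and -0.16 and none passed the test. The antibody cKO cells thus had a stronger loss of H3.3 transcripts than the others. Lyz2 was lower in every cKO group, at 2.48 CPM against 64210 CPM in peritoneal macrophages for example. One cKO library given IFNγ (replicate 1) stood apart, with 3600742 counts on the genes tested and a normalisation factor of 0.46. In it 57.1% of reads were unmapped, against 12.6% to 18.3% in the other day 8 libraries. CPM denotes counts per 1e+06 of the normalised library size.

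Markers of the labelled cells were present throughout. The 6 macrophage markers (among them Adgre1 and Csf1r) summed to 2482 CPM or more in each library, and the 4 markers of peritoneal macrophages (Gata6, Icam2, Selp and Alox15) to between 18740 and 22320 CPM in peritoneal and at most 26.2 CPM in cultured cells. The 6 T cell markers summed to at most 3.85 CPM in BMDMs and 49.0 CPM in peritoneal cells, the 4 B cell markers to at most 44.4 CPM, and the 4 dendritic cell markers to at most 12.8 CPM. Granulocyte, monocyte, B cell, dendritic cell and stromal markers differed between genotypes in some experiments. So did the peritoneal macrophage markers in cultured cells, at low levels.

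In the time course the Schlafen genes were higher in cKO than in WT, most of all Slfn4 and Slfn1. In the fits of all libraries the gap of Slfn4 and Slfn1 was wider on days 3 and 5 than on day 7. Whether the gap changed between days was not tested. Slfn4, a gene of myeloid cells, was at 4.36, 5.397 and 8.59 CPM in the 3 WT libraries of day 3 and at 362, 279 and 457 CPM in the 3 cKO libraries. On day 5 the WT libraries held 4.54, 2.21 and 1.81 CPM and the cKO libraries 528, 44.6 and 68.2 CPM. On day 7 the values were 20.2, 1.75 and 2.69 CPM in WT and 205, 68.0 and 106 CPM in cKO. No WT library overlapped a cKO library on any day, but 1 library set much of the spread on 2 of the days. Replicate 1 held 528 CPM among the cKO libraries of day 5, and without it the fitted log2 fold change of that day went from 6.24 to 4.33. Replicate 1 also held the highest WT value of day 7, and without it that day's log2 fold change went from 3.92 to 5.81. The narrower gap of Slfn4 on day 7 thus rested largely on this library. The log2 fold change of day 3 was 5.89 ± 1.03 (SE) and lay between 5.68 and 6.22 whichever library was left out.

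Slfn1, the founding short member, followed the same order in the fits of all libraries. It was at 0.614, 1.88 and 1.74 CPM in WT and 71.4, 53.7 and 93.2 CPM in cKO on day 3. The day 5 libraries held 1.37, 0.221 and 0.516 CPM in WT and 99.6, 7.31 and 12.98 CPM in cKO, and the day 7 libraries 5.68, 0.770 and 0.724 CPM in WT and 31.8, 9.84 and 17.1 CPM in cKO. The log2 fold changes were 5.66 ± 1.03, 5.84 ± 1.09 and 2.99 ± 0.92 (SE) on days 3, 5 and 7, and the groups did not overlap on any of these days. As for Slfn4, replicate 1 held the highest cKO value of day 5 (99.6 CPM) and the highest WT value of day 7 (5.68 CPM). The order of the days for Slfn1 may thus rest on these libraries, and its fits without them are not given. In WT libraries Slfn1 rested on few reads, between 4 and 109 counts. As with every value from bulk RNA, fewer expressing cells and less RNA per cell cannot be told apart.

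**Figure D1:**
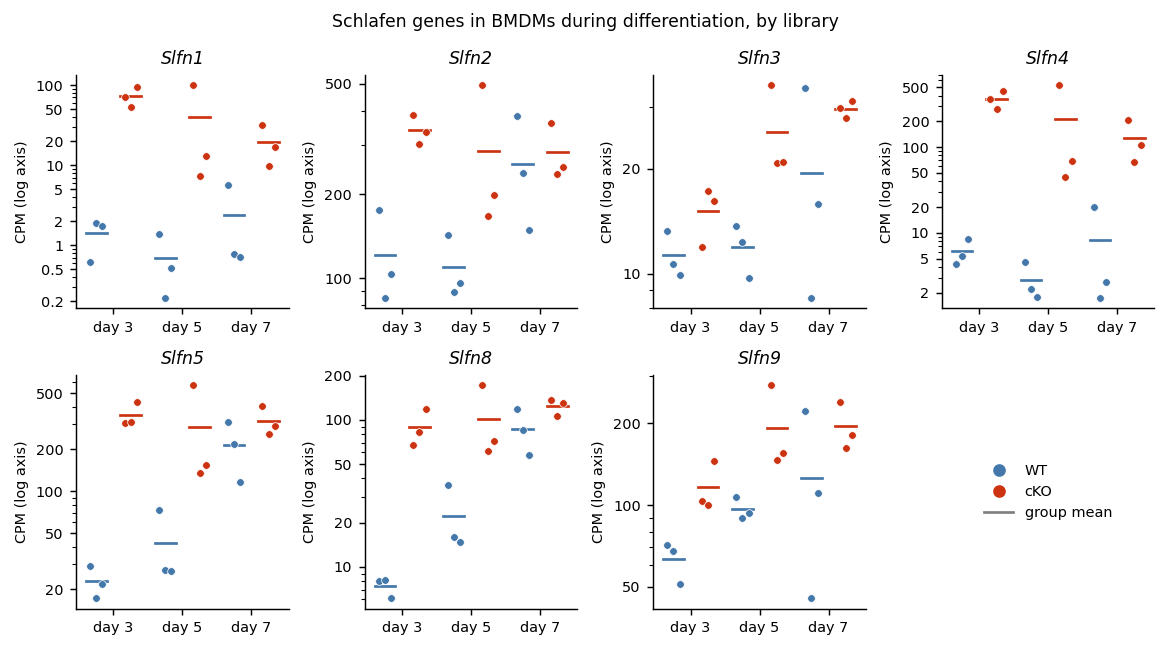
Level of each Schlafen gene in every time course library, in CPM on a log axis, against the day of culture, with WT and cKO libraries as separate points and group means marked. Slfn4 and Slfn1 in cKO lie above all WT points on each day, whereas the highest WT points of Slfn5, Slfn8 and Slfn2 reach the cKO range by day 7.

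The long members Slfn5 and Slfn8 showed a smaller gap, which narrowed by day 7. Slfn5, a nuclear Schlafen protein, was at 29.5, 17.3 and 21.8 CPM in WT and 309.5, 314 and 431 CPM in cKO on day 3, a log2 fold change of 3.94 ± 0.57. By day 7 the WT libraries held 311, 218 and 116 CPM and the cKO libraries 404, 255 and 290 CPM, so that the groups overlapped, with a log2 fold change of 0.56 (95% interval -0.52 to 1.63). The overlap came from WT replicate 1 at 311 CPM, and the remaining WT libraries lay below all cKO libraries. Slfn8 went the same way. Its WT means were 7.42 ± 1.13, 22.1 ± 11.9 and 86.8 ± 30.3 CPM (SD, n = 3) on days 3, 5 and 7, and its cKO means 89.6 ± 26.4, 102 ± 60.7 and 125 ± 16.03 CPM. Slfn9 was 1.83, 1.99 and 1.54 times its WT level in cKO on the 3 days, and the groups overlapped on day 7.

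Slfn2, the short member tied to quiescence, was abundant in both genotypes and differed less between them than Slfn1, Slfn4, Slfn5 and Slfn8 did. It was at 175, 85.1 and 104 CPM in WT and 386, 305 and 335 CPM in cKO on day 3, a 2.82-fold difference, and at 384, 239 and 150 CPM in WT and 362, 238 and 252 CPM in cKO on day 7, a 1.10-fold difference with overlapping groups. Slfn3, the neighbour of Slfn4, had the smallest difference of day 3, 11.3 ± 1.76 CPM in WT and 15.1 ± 2.83 CPM in cKO (SD, n = 3). All cKO libraries lay above all WT libraries for 6 of 7 members on day 3 (Slfn3 being the exception). On day 5 this held for 7 of 7 and on day 7 for 2 of 7 (Slfn1 and Slfn4). The same held for 18.3%, 15.4% and 9.50% of the 15955 genes tested on these days. On day 7 the overlap of Slfn3, Slfn5, Slfn8 and Slfn9 came from WT replicate 1 alone, at 33.95, 311, 117.8 and 222.4 CPM. The remaining WT libraries lay below all cKO libraries for these genes. The members' median log2 fold change was 3.595, 2.20 and 0.61, against 0.04, 0.01 and 0.01 over all genes.

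Interferon pathway genes, a list of 32 ligands, receptors, kinases, factors, inhibitors and targets, were called beside them by edgeR's quasi-likelihood test. On day 3, 21 of 29 tested genes rose and 1 fell in cKO, with a median log2 fold change of 3.53, and all 12 targets were among those that rose, for example Mx1 (6.03 ± 0.79, SE, adjusted p = 0.000383) and Ifit1 (6.70 ± 1.04, adjusted p = 0.00103), both antiviral proteins. The ligand Ifnb1, interferon beta, rose too (adjusted p = 0.0350) from at most 0.0682 to between 0.836 and 2.77 CPM. The gene that fell was Ifnar1 (log2 fold change -0.42, adjusted p = 0.0148), the receptor chain for type I interferon. On day 5, 19 of 29 rose and 0 fell, and on day 7 0 of 29 were called. Over all 15955 genes tested, 828, 351 and 139 rose and 405, 100 and 84 fell on days 3, 5 and 7. The 0 of day 7 is a count of calls and does not show that these genes were level between genotypes. Markers of other cells differed between genotypes as well. On day 3, 3 of 4 B cell and 2 of 4 monocyte markers rose in cKO, and 0 of 8 granulocyte markers were called. Monocyte markers then summed to 220.8 to 410.4 CPM in WT and 587.6 to 812.1 CPM in cKO, B cell markers to 9.77 to 10.7 and 22.4 to 44.4 CPM, and granulocyte markers, with overlap, to 1583 to 3038 and 2732 to 4205 CPM. On each of days 5 and 7, 2 of 8 granulocyte and 2 of 4 monocyte markers rose. Stromal markers summed to 13.1 to 42.3 CPM in WT and 67.5 to 95.3 CPM in cKO on day 5, and to 4.38 to 40.4 and 86.4 to 124.5 CPM on day 7, although none of the 3 tested was called. Their part in the Schlafen differences was not tested.

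Within one genotype, the change from day to day was tested for the members, and none passed. In WT, Slfn8 went from 7.42 to 22.1 CPM between days 3 and 5 (log2 fold change 1.57 ± 0.42, SE, adjusted p = 0.0556, edgeR), and 0 of 7 members were called where 2.64% of genes were. Between days 5 and 7, Slfn5 went from 42.8 ± 27.1 to 215 ± 97.9 CPM (log2 fold change 2.33, adjusted p = 0.0770), Slfn8 from 22.1 to 86.8 CPM (1.97, adjusted p = 0.0573) and Slfn2 from 109.6 to 258 CPM (1.23, adjusted p = 0.148). Again 0 of 7 were called, where 0.238% of genes were, although 3 of 7 had an unadjusted p under 0.05 and DESeq2 called those 3. In cKO, 0 of the 6 members other than Slfn4 were called between days 3 and 5 (3.59% of genes) or between days 5 and 7 (0.0564% of genes). Their unadjusted p was under 0.05 in 1 and 0 of 6, and DESeq2 called 0 of 6 in each. The cKO library of day 5 with the high values decided part of this. Without it Slfn1 fell between days 3 and 5 by 2.83 on the log2 scale (adjusted p = 0.0328), and Slfn4 had a log2 change of -2.68 in place of -0.78 in the same interval.

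In the deeply sequenced BMDM sets, all 6 members other than Slfn4 rose in cKO in each of the 3 sets by edgeR's quasi-likelihood test, where 18%, 9.74% and 16.9% of genes rose in sets 1, 2 and 3. Slfn4 was at 3.08, 2.35 and 2.76 CPM in WT and 103, 66.6 and 78.9 CPM in cKO of set 1. Set 2 held 5.48, 8.37 and 6.37 CPM in WT and 51.4, 105 and 60.3 CPM in cKO, and set 3 3.08, 1.87 and 4.13 CPM in WT and 94.6, 52.3 and 71.8 CPM in cKO. All cKO libraries lay above all WT libraries for 7 of 7 members in each set, and for 21.3%, 20% and 20.8% of genes. Slfn4, chosen for its rise in cKO, is among the 7, so this count is a description. Slfn4 had log2 fold changes of 4.93 ± 0.33, 3.42 ± 0.29 and 4.60 ± 0.33 (SE).

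Slfn1 had the strongest rise among the tested members, from 2.66 ± 1.89 to 31.6 ± 5.89 CPM in set 1 (SD, n = 3, log2 fold change 3.62, adjusted p = 1.41e-07), 2.61 in set 2 (adjusted p = 4.05e-06) and 3.54 in set 3 (adjusted p = 1.59e-07). The intermediate member Slfn3 rose by 1.05, 0.58 and 0.99 on the log2 scale, Slfn9 by 1.16, 0.68 and 1.24, and Slfn8 by 1.02, 1.004 and 0.87. Slfn2 rose by 0.42, 0.49 and 0.45 with adjusted p between 0.00192 and 0.00433. Slfn5 had the least secure call of sets 2 and 3, with log2 fold changes of 0.68 (adjusted p = 0.0265) and 0.63 (adjusted p = 0.0268). Its call was lost when any of 4 single libraries was left out in each of these sets, with adjusted p of up to 0.0888 in set 2 and 0.154 in set 3. These were WT replicates 1 and 3 and cKO replicates 1 and 2 of set 2, and WT replicates 2 and 3 and cKO replicates 1 and 3 of set 3. The members' median log2 fold change was 1.05, 0.68 and 0.98, against -0.03, -0.01 and -0.05 over the 18083 genes tested.

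The same-numbered WT libraries of sets 1 and 3 deviated together from their group means (r of 0.143 to 0.386 over genes, against -0.342 to 0.106 for the other pairs), and the labels do not say whether the sets share animals, so the 3 sets may not be independent. Markers differed with genotype here too. Granulocyte markers summed to 59.3 to 110.2 CPM in WT and 196 to 281 CPM in cKO of set 1, to 101 to 176 and 151 to 169 CPM in set 2 and to 66.5 to 120.3 and 194 to 319 CPM in set 3. Monocyte markers of set 2 summed to 91.0 to 113 CPM in WT and 360.2 to 404 CPM in cKO. B cell markers were higher in cKO without overlap in each set, at most 6.80 CPM in WT and 13.5 CPM in cKO, and stromal markers of set 3 summed to 10.6 to 15.3 CPM in WT and 22.9 to 32.7 CPM in cKO. Dendritic cell markers were also higher in cKO without overlap in each set, at most 4.72 CPM in WT and 12.8 CPM in cKO. The same held for peritoneal macrophage markers, at most 10.45 CPM in WT and 22.9 CPM in cKO. Their part in the Schlafen differences of the sets was not tested. Of the 28 interferon pathway genes tested, 16, 19 and 13 rose and 3, 1 and 3 fell in sets 1, 2 and 3.

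**Figure D2:**
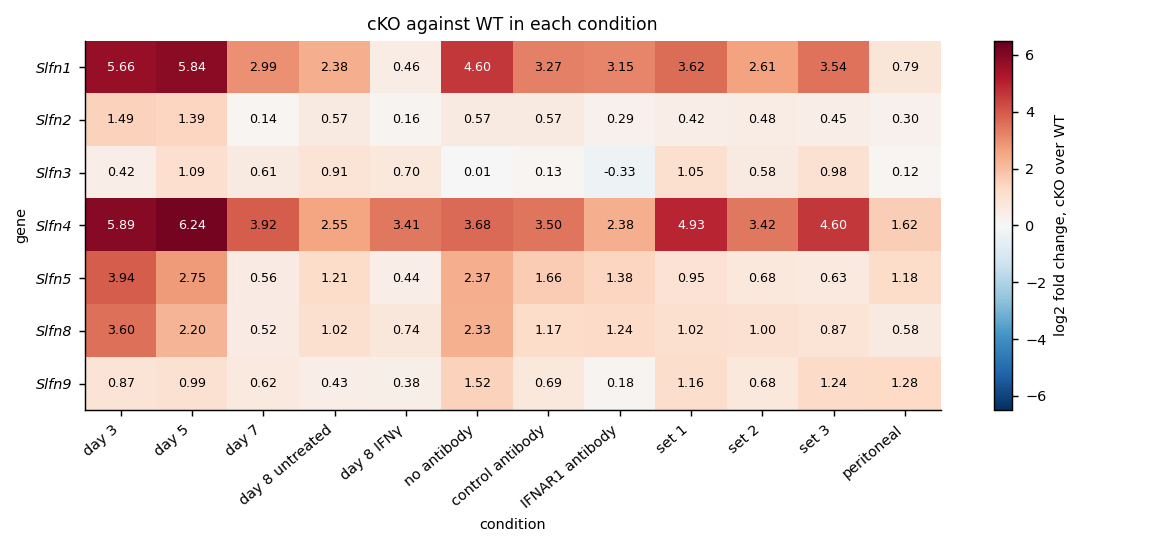
Heat map of the log2 fold change of each Schlafen gene (rows) between cKO and WT in each condition (columns), coloured from blue (lower in cKO) to red (higher) with the value printed in each cell and no errors drawn. Slfn4 is the highest or next to Slfn1 in each column, from 1.62 in peritoneal macrophages to 6.24 on day 5, and Slfn2 is at 1.49 or below throughout.

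On day 8 IFNγ raised all 7 Schlafen genes in WT and in cKO BMDMs by edgeR's quasi-likelihood test, where 20% and 17.2% of the 13075 genes tested rose. Slfn1 went from 0.439, 0.850 and 0.438 CPM in untreated WT to 28.2, 42.3 and 30.5 CPM after IFNγ, a rise of 5.85 ± 0.62 on the log2 scale (SE, adjusted p = 5.36e-05). This was the strongest response of the family in WT. Slfn5 followed, from 115, 157 and 102 to 990.4, 1348 and 839 CPM (log2 fold change 3.09, adjusted p = 3.79e-05). Slfn8, another long member, went from 51.6, 62.9 and 49.98 to 310, 402 and 244 CPM (2.54, adjusted p = 3.63e-05). Slfn4 rose from 1.87, 2.02 and 1.40 to 12.7, 11.9 and 9.27 CPM (2.68, adjusted p = 1.36e-05). Slfn2, from 179, 219 and 197 to 965, 1129 and 969 CPM, had a log2 fold change of 2.37 (adjusted p = 2.29e-06). Slfn3 rose by 1.57 (adjusted p = 0.000650) and Slfn9 by 1.10 (adjusted p = 0.0143). The call of Slfn9 was lost without WT untreated replicate 2 (adjusted p = 0.0667), WT untreated replicate 3 (0.0639) or WT IFNγ replicate 1 (0.0617). No untreated WT library reached an IFNγ library for any of the 7 members, as for 31.5% of genes.

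In cKO, Slfn4 went from 10.15 and 10.46 CPM untreated to 97.2 and 141 CPM after IFNγ (log2 fold change 3.54 ± 0.24, SE, adjusted p = 7.68e-06). Slfn1 went from 2.84 and 3.23 to 12.7 and 72.8 CPM (3.93 ± 0.61, adjusted p = 0.000921), and Slfn5 from 301 and 276 to 914 and 1950 CPM (2.31, adjusted p = 0.00104). In each of these 3 genes the lower IFNγ value belonged to the shallow library that stood apart. Without it all 7 members were still called, with log2 fold changes from 1.53 for Slfn9 to 4.61 for Slfn1 and 3.80 for Slfn4. Slfn2 rose by 1.95, Slfn8 by 2.26, Slfn3 by 1.37 and Slfn9 by 1.05, the last at an adjusted p of 0.0484. The Slfn9 call was lost without cKO untreated replicate 1 (adjusted p = 0.173), cKO untreated replicate 2 (0.199) or cKO IFNγ replicate 2 (0.420), and that of Slfn3 without cKO untreated replicate 1 (0.0528) or 2 (0.0501). In a fit of only the 2 groups compared, the calls of Slfn1 (adjusted p = 0.0556), Slfn3 (0.0904) and Slfn9 (0.185) were lost. IFNγ and untreated cKO libraries did not overlap for 7 of 7 members and 27.5% of genes. Placing the 2 unplaced cKO libraries by their titles left 0 of 7 members called in cKO, with a log2 fold change of 0.53 for Slfn4. Placing them by their library names left 7 of 7 called.

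**Figure D3:**
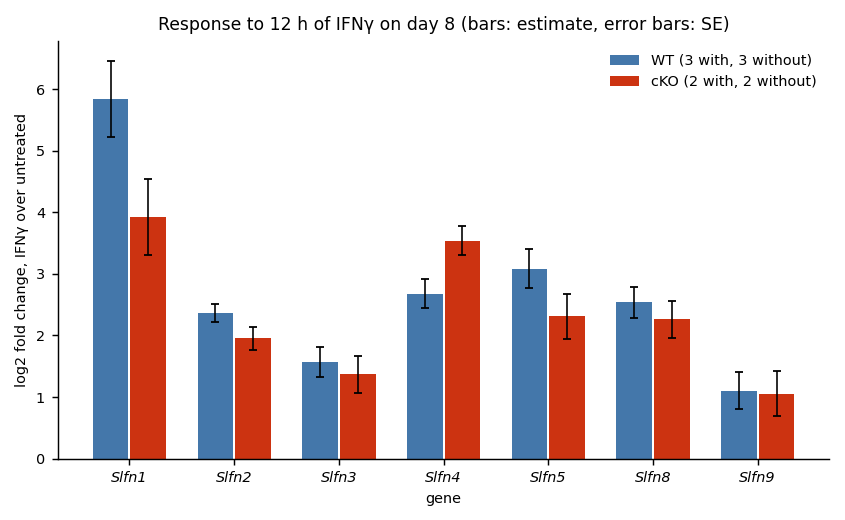
Bars give the fitted log2 fold change of each Schlafen gene between IFNγ and untreated BMDMs of day 8, in WT (3 libraries an arm) and cKO (2 an arm), and error bars its SE. All bars lie above 0, from 1.05 for Slfn9 in cKO to 5.85 for Slfn1 in WT, and Slfn4 is the one member whose cKO bar is the taller.

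Whether the response differed between genotypes was tested by the interaction term, and 0 of 7 members passed, nor did any gene (0% of 13075), although 1 member and 1105 genes had an unadjusted p under 0.05 and DESeq2 called 0 members and 83 genes. Slfn4 responded by 0.86 more in cKO on the log2 scale (95% interval 0.12 to 1.60, not called), and Slfn1 with a difference of -1.92 (interval -3.93 to 0.09, adjusted p = 0.589). With 2 cKO libraries in each arm these intervals were wide. The Slfn4 value is made of its differences between genotypes, for which Slfn4 was chosen. It and the place of Slfn4 among the 7 are therefore descriptions. Without the shallow library the differences were 1.13 for Slfn4 and -1.22 for Slfn1. Leaving out cKO IFNγ replicate 2 brought Slfn1 (difference -3.81, adjusted p = 0.000507) and Slfn5 (-1.45, adjusted p = 0.0122) past the threshold, in a fit that rests on the shallow library alone. Of the interferon pathway genes, 24 of 28 rose and 1 fell in WT after IFNγ, and 23 rose and 1 fell in cKO.

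Between genotypes, Slfn4 and Slfn1 had the widest differences in untreated day 8 cells, with Slfn4 at 10.15 and 10.46 CPM in cKO and at most 2.02 CPM in WT (log2 fold change 2.55 ± 0.25, SE). None of the other 6 members passed the edgeR test (lowest adjusted p = 0.207), where 0.612% of genes did. Their unadjusted p was under 0.05 in 5 of 6, DESeq2 called 4 of 6 (Slfn1, Slfn2, Slfn5 and Slfn8), and all cKO libraries lay above all WT libraries for 6 of 7 members, Slfn9 being the exception, and for 18% of genes. Slfn1 held only 4 to 8 counts in untreated WT. After IFNγ, Slfn4 was at 97.2 and 141 CPM in cKO and 12.7, 11.9 and 9.27 CPM in WT (log2 fold change 3.41 ± 0.21, 3.67 without the shallow library and 3.08 without the other). The other 6 were not called in edgeR, where 4.83% of genes were, nor in DESeq2, and 2 of 6 had an unadjusted p under 0.05. Without the shallow library Slfn1 (log2 fold change 1.14), Slfn3 (1.10), Slfn5 (0.91) and Slfn8 (1.13) were higher in cKO with adjusted p between 0.00754 and 0.0438, and without the other cKO library Slfn1 was lower (-1.43, adjusted p = 0.00888). Monocyte markers summed to 24.2 to 38.9 CPM in WT and 82.5 to 178 CPM in cKO after IFNγ, and stromal markers to 8.15 to 48.8 and 53.1 to 339.9 CPM. Their part in this was not tested.

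Peritoneal macrophages, which mature in the animal and not in culture, had a Schlafen profile of their own. Slfn4 was high in WT already, at 232, 296 and 253 CPM, and higher in cKO, at 756, 788 and 863 CPM, a 3.08-fold difference (log2 fold change 1.62 ± 0.16, SE). Slfn1 was at 53.4, 57.5 and 37.9 CPM in WT and 57.9, 100 and 99.5 CPM in cKO, whereas in the WT BMDM groups without IFNγ its mean did not pass 5.09 CPM. Slfn3, by contrast, was at 1.01 to 4.24 CPM in WT and 2.74 to 3.96 CPM in cKO, the lowest member here. These libraries were made with another kit (SMART-Seq v4) from cells isolated with a selection kit, so cell type and library method cannot be told apart and no test was made between peritoneal cells and BMDMs.

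None of the 6 members other than Slfn4 passed the edgeR test between cKO and WT peritoneal macrophages, where 0.971% of 12361 genes did. All 6 had a log2 fold change above 0, 4 of 6 had an unadjusted p under 0.05, and DESeq2 called 1, Slfn9, whose level was 11.8, 17.5 and 14.2 CPM in WT and 21.9, 48.9 and 35.2 CPM in cKO (log2 fold change 1.28, adjusted p = 0.140 in edgeR and 0.00491 in DESeq2). All cKO libraries lay above all WT libraries for 5 of 7 members, Slfn3 and Slfn5 being the exceptions, and for 8.47% of genes. Of the 27 interferon pathway genes tested, 9 rose and 0 fell, 8 of them targets. Monocyte markers were lower in cKO, summing to 140.6 to 439.5 CPM in WT and 33.6 to 55.5 CPM in cKO, and their part in the Schlafen values was not tested.

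The antibody experiment asked how much of the difference depends on signalling through IFNAR1, and among the Schlafen genes only Slfn5 passed the test of blockade. In cKO cells Slfn5 was at 198, 174 and 114 CPM with no antibody, 169.9, 181 and 137 CPM with control antibody and 42.1, 27.9 and 27.9 CPM with IFNAR1 antibody. It fell by 2.31 ± 0.29 on the log2 scale between control and IFNAR1 antibody (SE, adjusted p = 0.00190, edgeR). In WT cells it was at 49.98, 51.1 and 53.5 CPM with control and 8.80, 11.7 and 17.3 CPM with IFNAR1 antibody, and fell by 2.03 ± 0.29 (adjusted p = 0.00258). The arms did not overlap in either genotype, which held for 2 of 7 members (Slfn5 and Slfn8) and for 14.5% of genes in cKO and 17.2% in WT. The fall in WT lost its call in a fit of these groups alone (adjusted p = 0.0642). Genes that fell made up 1.69% of the 17191 tested in cKO and 3.06% in WT, and 1 of 7 members fell in each.

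Slfn8, the next long member, was at 39.1, 38.3 and 25.6 CPM with control antibody and 14.8, 12.7 and 14.3 CPM with IFNAR1 antibody in cKO, without overlap. Its log2 fold changes of -1.30 in cKO (adjusted p = 0.103) and -1.37 in WT (adjusted p = 0.0568) did not pass edgeR, and DESeq2 called both (adjusted p = 0.0404 and 0.0161). Slfn4 was at 9.22, 7.95 and 5.08 CPM with control and 6.66, 2.28 and 3.62 CPM with IFNAR1 antibody in cKO (log2 fold change -0.82, 95% interval -2.04 to 0.40, adjusted p = 0.459). In WT it was between 0.420 and 1.13 CPM in the libraries of both arms (log2 fold change 0.29, interval -1.28 to 1.86). Slfn1 in cKO was at 3.303, 5.06 and 0.622 CPM with control and 0.951, 0.708 and 0.572 CPM with IFNAR1 antibody (-1.94, adjusted p = 0.178), on 6 to 119 counts. Slfn2 (0.04, interval -0.73 to 0.81), Slfn3 (0.32, -0.53 to 1.18) and Slfn9 (0.11, -0.93 to 1.16) in cKO had intervals on both sides of 0. Slfn2 was at 172, 61.3 and 60.8 CPM under IFNAR1 antibody in cKO, 1 library standing well above the other two.

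**Figure D4:**
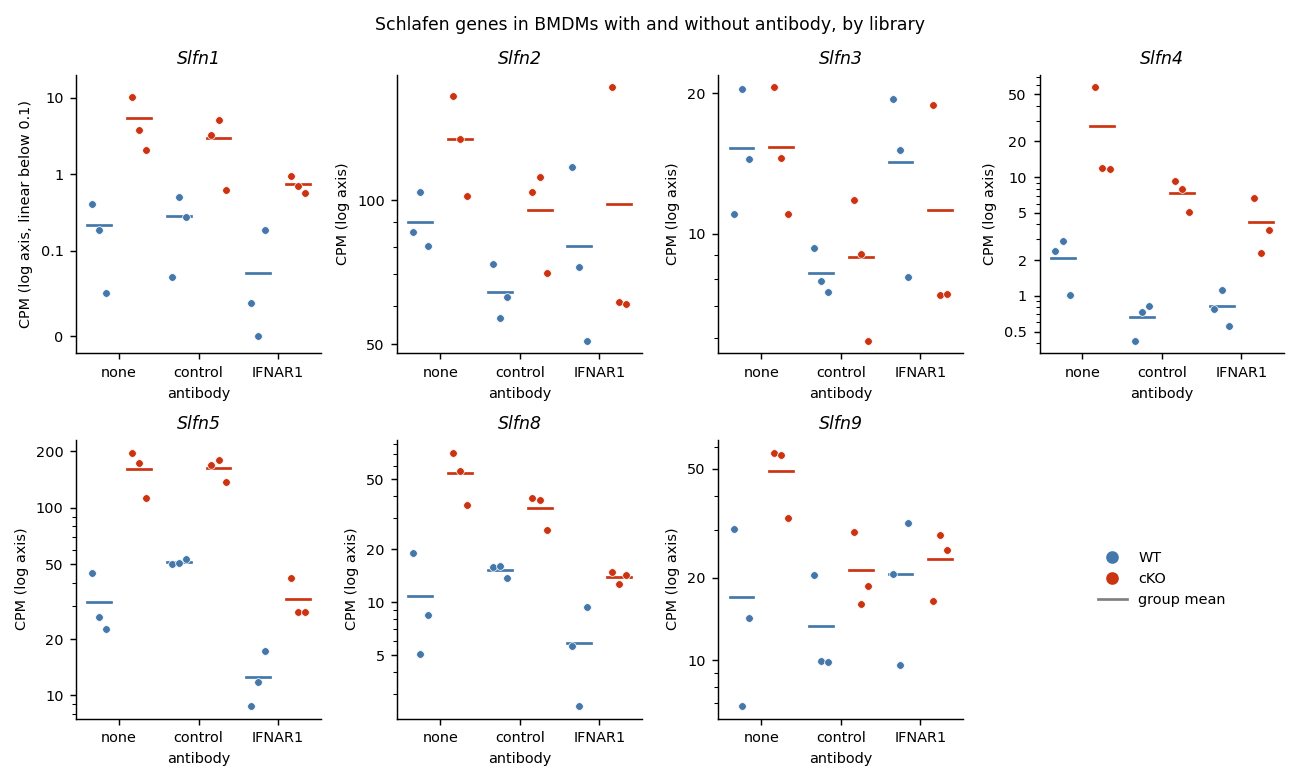
Level of each Schlafen gene in every library of the antibody experiment, in CPM on a log axis (linear below 0.1 for Slfn1), by genotype (3 libraries a group) and by arm (no antibody, control antibody, IFNAR1 antibody), with group means marked. Slfn5 with IFNAR1 antibody lies below all other points of its genotype, and cKO points of Slfn4 lie above WT points in each arm.

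The effect of blockade was not shown to differ between genotypes. The interaction was called for 0 of 7 members and 0% of genes, 0 members and 975 genes had an unadjusted p under 0.05, and DESeq2 called 0 members and 49 genes. For Slfn5 the difference between genotypes was -0.28 (interval -1.13 to 0.56) and for Slfn4 -1.11 (interval -3.10 to 0.88). The Slfn4 value, again made of its differences between genotypes, and its place among the 7 are descriptions. The IFNAR1 arm of WT held 1, 0 and 4 counts of Slfn1, too few for a useful estimate.

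All cKO libraries lay above all WT libraries in each arm for Slfn4. This held for 5, 4 and 4 of 7 members with no, control and IFNAR1 antibody, and for 20.2%, 18.3% and 4.19% of genes. With no antibody it was at 57.3, 12.0 and 11.7 CPM in cKO and 2.38, 2.92 and 1.01 CPM in WT (log2 fold change 3.68 ± 0.61, SE, and 2.49 without cKO replicate 1). With control antibody the WT libraries held 0.420, 0.736 and 0.824 CPM (3.50 ± 0.68) and with IFNAR1 antibody 0.769, 1.13 and 0.555 CPM (2.38 ± 0.64). Of the other 6 members, 3 rose in cKO with no antibody (Slfn1, Slfn5 and Slfn8), 2 with control antibody (Slfn1 and Slfn5) and 1 with IFNAR1 antibody (Slfn5), where 3.39%, 2.88% and 0.477% of genes rose. Slfn5 had log2 fold changes of 2.37 (adjusted p = 0.000358), 1.66 (adjusted p = 0.00289) and 1.38 (adjusted p = 0.0405) in the 3 arms. The last of these was lost without any 1 of 5 of the 6 libraries (adjusted p of up to 0.170), all but WT replicate 3, and in a fit of these groups alone (adjusted p = 0.637). Slfn1 had 4.60 (adjusted p = 0.00522) with no antibody and 3.27 (adjusted p = 0.0417) with control antibody. The latter was lost without any 1 of 5 of the 6 libraries (adjusted p of up to 0.173), all but cKO replicate 3. In WT, Slfn1 held 1 to 8 counts with no antibody and 1 to 9 with control antibody, under the filter's minimum count. It passed the filter through cKO libraries, with 30 to 192 counts in those without antibody. Its calls, and its place among the 3 and 2 members that rose, are therefore descriptions.

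The control antibody itself went with shifts that did not pass the test. In cKO, Slfn4 was at 57.3, 12.0 and 11.7 CPM with no antibody against 9.22, 7.95 and 5.08 CPM with control antibody (log2 fold change -1.86, adjusted p = 0.122), and Slfn9 had -1.18 (adjusted p = 0.320). In cKO 0 of 7 members were called, where 1.46% of genes were, with 2 at an unadjusted p under 0.05 and 1 called by DESeq2 (Slfn4). In WT 0 of 7 were called, where 8.90% of genes were, with 3 at an unadjusted p under 0.05 and 0 called by DESeq2, and Slfn4 had -1.67 (adjusted p = 0.127). The arms share libraries, since control antibody enters both this comparison and the one with IFNAR1 antibody. Of 28 interferon pathway genes, 17 rose and 1 fell in cKO with no antibody, 15 rose and 0 fell with control antibody, and 13 rose and 0 fell with IFNAR1 antibody. Between control and IFNAR1 antibody 5 fell and 1 rose in cKO, and Oasl2, an oligoadenylate synthetase-like protein, fell by 2.45 (adjusted p = 0.0191) while the chemokine Cxcl10 rose by 2.33 (adjusted p = 0.0252). Stromal markers summed to 156 to 290.3 CPM in cKO with control antibody and 40.7 to 84.4 CPM with IFNAR1 antibody, and their part was not tested.

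The double knockouts asked whether the Schlafen genes depend on the DNA-sensing adaptor STING (Tmem173), the RNA-sensing adaptor MAVS or the transcription factor IRF7 in cells without H3.3. Each was compared with the 9 cKO libraries of the 3 sets. Libraries of set 3 and of H3.3cKO:Irf7KO were counted on a list of 54146 genes, and the others of this experiment on a list of 55536. With cKO of set 3 alone as the reference, 0 of 7 members were called in H3.3cKO:Irf7KO. Tmem173 transcript was at 5.52 CPM in H3.3cKO:StingKO and 78.7 CPM in cKO (log2 fold change -3.83), and Irf7 was lower in H3.3cKO:Irf7KO by 1.73 on the log2 scale. Mavs was at 37.5 CPM in the libraries labelled H3.3cKO:MavsKO and 45.3 CPM in cKO (-0.26, adjusted p = 0.00439), so that its count hardly separated these libraries from cKO. The count is taken over the whole gene and does not show the loss of single exons. The study reports the deletion of Mavs by genomic PCR, by qRT-PCR and by read tracks over the deleted exons.

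Slfn4 stayed near its cKO level in all 3. The 9 cKO libraries ranged from 51.4 to 105 CPM, with a mean of 76.0 ± 20.8 CPM (SD). H3.3cKO:StingKO held 60.3, 105 and 106 CPM (log2 fold change 0.25, 95% interval -0.17 to 0.68, adjusted p = 0.369), the libraries labelled H3.3cKO:MavsKO 55.1, 74.7 and 53.6 CPM (-0.31, interval -0.75 to 0.13, adjusted p = 0.441) and H3.3cKO:Irf7KO 58.1, 57.1 and 44.4 CPM (-0.51, interval -0.96 to -0.06, adjusted p = 0.148). None of these passed the edgeR test.

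In H3.3cKO:StingKO, 2 of 7 members were called, where 36.1% of genes were. Slfn2 rose by 0.42 on the log2 scale, from 269.5 ± 22.2 CPM (n = 9) to 361 ± 20.3 CPM (SD, n = 3, adjusted p = 0.000542), and Slfn9 fell by 0.43, from 194 ± 15.3 to 144 ± 12.6 CPM (adjusted p = 0.00565). The Slfn9 call was lost without H3.3cKO:StingKO replicate 1 (adjusted p = 0.0502). A share of 2 in 7 is not above that of all genes. In the libraries labelled H3.3cKO:MavsKO 0 of 7 were called, where 8.79% of genes were, with 0 at an unadjusted p under 0.05 and 0 called by DESeq2. In H3.3cKO:Irf7KO 0 of 7 were called, where 9.85% of genes were, with 3 at an unadjusted p under 0.05 (Slfn1, Slfn4 and Slfn9) and 0 called by DESeq2. Slfn1 was at 22.9, 19.3 and 16.04 CPM there, below all 9 cKO libraries (25.0 to 41.9 CPM), as were 4.30% of genes, with a log2 fold change of -0.62 (interval -1.18 to -0.07, adjusted p = 0.149), and Slfn9 too lay below all 9 (-0.30, adjusted p = 0.106).

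Other differences went with the double knockouts. In H3.3cKO:Irf7KO, H3f3a (-0.92) and H3f3b (-0.73) were lower than in cKO, and granulocyte markers summed to 84.4 to 115 CPM against 151 to 319 CPM in the 9 cKO libraries. Monocyte markers there summed to 102 to 207.5 CPM against 293 to 479 CPM, and B cell markers to 3.41 to 5.13 CPM against 5.45 to 13.5 CPM. In H3.3cKO:StingKO, stromal markers summed to 162 to 199 CPM against 22.9 to 69.0 CPM in cKO, Irf7 rose by 1.08 on the log2 scale, and 14 of 28 interferon pathway genes rose and 3 fell. The libraries labelled H3.3cKO:MavsKO had granulocyte markers at 57.1 to 118 CPM and stromal markers at 80.2 to 288 CPM. The corresponding counts of interferon pathway genes were 0 and 0 in the libraries labelled H3.3cKO:MavsKO and 4 and 5 in H3.3cKO:Irf7KO. Whether these bear on the Schlafen values was not tested. The 3 comparisons share their cKO libraries.

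**Figure D5:**
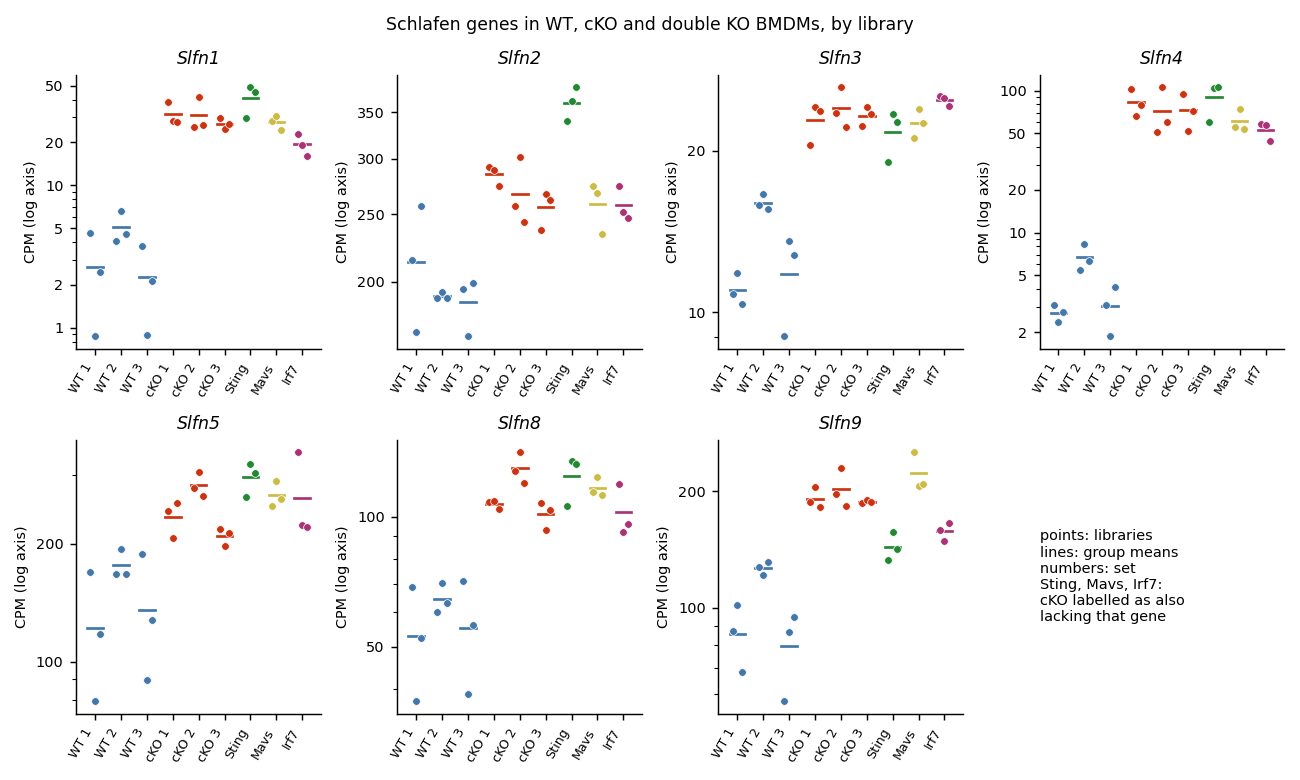
Level of each Schlafen gene in every library of the BMDM sets and double knockouts, in CPM on a log axis, with 3 libraries a group and group means marked. Sting, Mavs and Irf7 stand for the double knockouts, in which every point of Slfn4 and Slfn1 lies above the WT points of all 3 sets.

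Across all 27 groups, Slfn4 ranged from 0.660 to 802 CPM in group mean. The libraries of each experiment were normalised apart, so levels set across experiments are side by side only. The highest group was cKO peritoneal at 802 ± 54.8 CPM (SD), followed by cKO day 3 at 366 ± 89.1 CPM and WT peritoneal at 261 ± 32.6 CPM. cKO day 5 (214 ± 272 CPM) and cKO day 7 (126 ± 70.9 CPM) came next and overlapped in range with each other and with cKO day 8 after IFNγ (119 ± 31.0 CPM). The cKO sets and double knockouts formed a band from 53.2 to 90.4 CPM in which neighbours overlapped. All WT BMDM groups without IFNγ lay between 0.660 and 8.22 CPM, and WT day 8 after IFNγ was at 11.3 ± 1.78 CPM, next to untreated cKO of day 8 at 10.3 ± 0.22 CPM. The lowest were the WT control antibody and WT IFNAR1 antibody arms (0.660 ± 0.212 and 0.818 ± 0.290 CPM), which overlapped.

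Per kilobase of exon, Slfn2 was the highest member in every group. In WT of day 3 it was at 73.0 ± 28.6 CPM per kb (SD, n = 3), followed by Slfn9 at 10.7 ± 1.80, Slfn5 at 3.61 ± 0.98 and Slfn3 at 3.31 ± 0.52, the last 2 within their spread, with Slfn4 at 1.54 ± 0.56 and Slfn1 at 0.757 ± 0.372 at the bottom. In cKO of day 3 Slfn4 was second at 92.4 ± 22.5 CPM per kb behind Slfn2 at 206 ± 24.7, and Slfn3 last at 4.44 ± 0.83. In peritoneal macrophages the order was the same in both genotypes, with Slfn2 (194 ± 22.0 in WT and 238 ± 12.4 in cKO) ahead of Slfn4 (65.8 ± 8.22 and 202 ± 13.8), Slfn1, Slfn8, Slfn5, Slfn9 and Slfn3. After IFNγ Slfn2 led in WT with 614 ± 56.3 CPM per kb, followed by Slfn5 with 167 ± 41.3, and Slfn4 was last with 2.85 ± 0.45.

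The members varied together over the 79 placed libraries to different degrees. On log2 CPM centred on the mean of each experiment, Pearson's r was highest between the long members Slfn5 and Slfn8 (0.951) and between Slfn1 and Slfn4 (0.929), and lowest between Slfn2 and Slfn9 (0.522). The libraries share genotypes and treatments, so these are descriptions with no test. Among 11163 genes tested in all experiments, those most like Slfn4 were Apol9b (r = 0.949, Spearman's rho = 0.935), the oligoadenylate synthetase-like gene Oasl1 (0.924), the class I-like MHC gene H2-Q6 (0.902), Ifi44 (0.900) and Ifi213 (0.882). Those most like Slfn2 were Tor3a (0.949, rho = 0.929), Trafd1 (0.942), the ubiquitin ligase Rnf114 (0.937), the non-classical MHC gene H2-T23 (0.934) and Ube2l6 (0.929), the conjugating enzyme for ISG15. Without the 2 libraries farthest from the median, r was 0.950 for Apol9b and 0.942 for Tor3a.

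Other genes with a Schlafen name were measured beside the 7. The pseudogene Slfn10-ps lay above WT in cKO without overlap on day 3, at 42.6, 51.8 and 51.5 CPM against 32.7, 27.9 and 29.6 CPM (log2 fold change 0.69). In WT of day 8 it was at 20.9, 26.5 and 22.3 CPM untreated and 18.8, 19.7 and 16.9 CPM after IFNγ (log2 fold change -0.33, adjusted p = 0.134, edgeR). It shared 19.7% of its 50-base windows with other genes. Slfn14, at the end of the cluster, was at most 3.11 CPM in any library and Slfnl1, on chromosome 4, at most 1.21 CPM.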

How the data were processed

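Per the labels and the study's methods, total RNA was sequenced after rRNA depletion (BMDMs, NEBNext kits) or with SMART-Seq v4 (peritoneal macrophages), trimmed with Cutadapt and aligned to mm10 with STAR, whose versions are not given in the sources used here. The authors deposited 1 table of STAR gene counts per library, and the column without strand was used. Reads outside genes took a median of 8.27% (unmapped), 8.80% (multimapping), 13.9% (no feature) and 4.85% (ambiguous) and were left out. Multimapping reads are not counted, which lowers genes with similar copies.

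Counts were filtered with filterByExpr (minimum count of 10, total of 15), scaled by TMM and tested in edgeR 4.0.16 (R 4.3.3) by the two-sided quasi-likelihood test, fitted over all groups of an experiment, with Benjamini-Hochberg adjustment over all genes tested and a threshold of 0.05. Intervals are 95%. The test was tried on simulated data with known changes. DESeq2 1.42.0, no filter, the strand column, only the groups compared, a replicate block, a minimum fold, and leaving out each library were alternatives. The named genes were the 7 members, the fixed lists and the 5 genes most correlated with Slfn4 and with Slfn2. The members and lists were chosen with earlier results of these data known.

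Replicate numbers are shared between groups by the labels. Same-numbered libraries deviated together, with every pair's correlation over 0.1, for cKO against WT on days 3 and 7 and in peritoneal macrophages, cKO of day 7 against day 5, IFNγ in WT, and control against no antibody in WT, and the block changed no count of members there. No 2 libraries of a group agreed within sampling noise (77 pairs). The labels of 2 further cKO libraries from day 8 contradict each other on IFNγ (title against library name), and these entered no comparison. Precision rests on 2 or 3 libraries a group.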

Additional observations from a re-analysis of the deposited data

Results flagged for a closer look

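The 2 cKO libraries of day 8 that could not be placed held Slfn4 well above the highest untreated WT library (2.02 CPM), in data outside the comparisons. The library whose title says with IFNγ and whose library name says without held 9.83 CPM, and the library whose title says without and whose name says with held 152 CPM. Slfn5 was at 224 and 1926 CPM in the same libraries and Slfn2 at 241 and 1190 CPM. The placed cKO libraries held Slfn4 at 10.15 and 10.46 CPM untreated and at 97.2 and 141 CPM after IFNγ. Slfn5 was at 276 to 301 and 914 to 1950 CPM there, and Slfn2 at 276 to 314 and 1104 to 1178 CPM. For Slfn4, Slfn5 and Slfn2, each unplaced library lay nearer the placed libraries of its library name than those of its title. This was not tested, the labels themselves do not settle which is right, and neither library entered the main fits.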

How the results depend on the processing

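Of the counts of called members and the Slfn4 differences, 356 values under an alternative kept within the limits set (a count within 1.5 times) and 59 moved. No member called in the main fit changed direction under an alternative, but members not called did. Slfn1 in cKO against WT after IFNγ went from 0.46 to as low as -1.43 (log2). Slfn4 in WT day 7 against day 5 went from 1.56 to as low as -0.33. Alternatives that could not be made include a fit of only the groups compared in peritoneal macrophages, where there are no others. Precision rests on 2 or 3 libraries a group, and on counts of 0 to 9 for Slfn1 in WT of the antibody experiment. The cause of each shift was not tested.

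Members called with DESeq2 were 1 for WT day 5 against day 3, 3 for WT day 7 against day 5, 4 for untreated cKO against WT on day 8, 1 in peritoneal macrophages, 2 for IFNAR1 against control antibody in cKO and 2 in WT, and 1 for control against no antibody in cKO. With no filter on low counts the same comparisons gave 1, 3, 4, 3, 2, 2 and 1, the IFNγ interaction 1, and the Sting, Mavs and Irf7 double knockouts 5, 1 and 3. With the replicate block (pairing by number), the call counts were 1 for WT day 5 against day 3, 3 for WT day 7 against day 5 and 2 for IFNAR1 antibody in WT, and the block moved no other count by more than 1.5 times. With only the groups compared, they were 2 for WT day 5 against day 3, 5 for untreated day 8, 4 for IFNγ in cKO, 0 for cKO against WT with IFNAR1 antibody, 2 and 0 for IFNAR1 against control antibody in cKO and WT, 1 and 2 for control against no antibody in cKO and WT, 4 for Sting and 2 for Irf7. The strand column gave 1 for cKO against WT with control antibody, and a log2 fold change of at least 1 left 2 in set 2, 2 in set 3 and 0 for Sting. Placing the 2 unplaced libraries by title gave 0 for IFNγ in cKO. Placing them by library name gave 7 for IFNγ in cKO and 1 for cKO against WT after IFNγ.

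Leaving out 1 library at a time, Slfn4 lay between 5.68 and 6.22 (log2) on day 3, 4.33 and 6.72 on day 5 and 3.38 and 5.81 on day 7. The counts of members lay between 0 and 2 for WT day 7 against day 5 (2 without WT day 5 replicate 1 or WT day 7 replicate 3), 0 and 1 for cKO day 5 against day 3, 0 and 4 for cKO against WT after IFNγ, 6 and 7 for IFNγ in WT, 5 and 7 in cKO, and 0 and 2 for the IFNγ interaction. They lay between 3 and 4, 1 and 2, and 0 and 2 for cKO against WT with no, control and IFNAR1 antibody (2 without WT IFNAR1 replicate 3), 1 and 3 for IFNAR1 antibody in WT (3 without WT IFNAR1 replicate 3), 0 and 1 for control against no antibody in WT (1 without WT no antibody replicate 1), 5 and 6 in sets 2 and 3, and 1 and 2 for Sting. Where this left 1 cKO library in an arm of day 8, it was assumed to vary like the other groups.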
